A study of Rattus norvegicus with 15 samples.

Results

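Collagen genes were described here by class in the multifidus muscle, a deep muscle beside the spine, of rats that had spinal surgery and later received mitochondria, vitamin D, both or neither. The members were all genes of the deposited table whose symbol is Col, a number, the letter a and a number, which gave 44 of 37991 genes. They were divided by the structure of the protein into 11 fibrillar chains, 6 basement membrane chains (type IV), 9 FACIT chains (fibril-associated collagens with interrupted triple helices) and 18 others. The last group held 6 chains of type VI, which forms beaded filaments, 3 short-chain network formers, 1 anchoring fibril chain, 4 transmembrane chains, 2 multiplexins and 2 chains placed in none of these. All rats were wild-type male Sprague Dawley rats aged 12 weeks. Control rats had no injury and gave 2 libraries, and rats with hemilaminectomy and ligation of the left L5 spinal nerve but no later treatment (the surgery group) also gave 2. The pMT group, with 4 libraries, had the same surgery and then mitochondria isolated from human plasma (pMT), injected on the left into the muscle beside the spine at 2 sites (L4–L5, L5–L6). Each site received 25 µg in SHE buffer (100 µL), which made 50 µg per rat. The VitD group, with 3 libraries, had the surgery and then cholecalciferol at 150 µg per site, 300 µg per rat, and the pMT/VitD group, with 4 libraries, had the surgery and both injections at these doses. Control, surgery and pMT tissue was taken 28 days after surgery and 14 days after the injections, and the days for the VitD and pMT/VitD groups are not given in the sources used here. No group received the buffer alone. No source used here says that each library came from a separate rat, so p-values measure the spread between these libraries.

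Collagens are triple helices of chains that are folded and hydroxylated in the endoplasmic reticulum, exported, trimmed at their ends and crosslinked outside the cell. Fibrillar collagens build the cables that carry tension, type IV builds the sheet-like network under epithelia, endothelia and around every muscle fibre, and FACITs sit on the surface of fibrils and link them to other matrix. In skeletal muscle most fibrillar collagen is made by fibroblasts and fibro-adipogenic progenitors of the interstitium, and excess of it after injury or denervation is called fibrosis.

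Promoters were read for the chains on which the comparisons within and between classes turned, from RefSeq windows on GRCr8 that reach 250 bases before and 50 bases after the annotated gene start. Of the 44 members, 35 matched an entry by gene identifier. The motif searched was CCAAT, the letters of the CCAAT box, on both strands (ATTGG on the other), and matches are in capitals. Col1a2 is shown as a chain of type I, and Col5a1 and Col5a3 as chains of the same collagen type that differed across the groups. Col4a1 is from a gene pair whose TPM ratio ran from 1.35 to 1.57, and Col4a3 is a type IV chain that did not follow Col4a1. Col1a2 lies on the plus strand (chr4:33518307-33518606), Col5a1 on the plus strand (chr3:31606630-31606929), Col5a3 on the minus strand (chr8:27625899-27626198), Col4a1 on the plus strand (chr16:84885347-84885646) and Col4a3 on the plus strand (chr9:91323740-91324039). Each is written 5′ to 3′ on the strand of its gene.
Col1a2: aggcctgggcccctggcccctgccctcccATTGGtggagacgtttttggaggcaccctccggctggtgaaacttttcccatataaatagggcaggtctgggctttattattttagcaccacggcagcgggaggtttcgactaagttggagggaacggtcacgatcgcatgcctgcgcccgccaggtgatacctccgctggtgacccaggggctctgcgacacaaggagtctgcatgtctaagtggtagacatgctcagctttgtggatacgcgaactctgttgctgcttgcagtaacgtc
Col5a1: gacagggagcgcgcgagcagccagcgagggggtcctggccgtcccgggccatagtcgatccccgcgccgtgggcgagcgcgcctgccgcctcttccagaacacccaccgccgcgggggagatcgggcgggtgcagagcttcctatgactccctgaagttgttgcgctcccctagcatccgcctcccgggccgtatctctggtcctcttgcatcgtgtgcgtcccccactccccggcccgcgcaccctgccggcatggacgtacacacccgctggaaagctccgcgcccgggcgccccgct
Col5a3: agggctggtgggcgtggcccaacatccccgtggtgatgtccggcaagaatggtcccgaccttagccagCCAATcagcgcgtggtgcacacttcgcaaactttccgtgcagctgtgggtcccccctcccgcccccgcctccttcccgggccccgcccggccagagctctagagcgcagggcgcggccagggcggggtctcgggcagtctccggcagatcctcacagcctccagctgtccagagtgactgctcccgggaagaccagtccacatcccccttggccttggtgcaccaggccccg
Col4a1: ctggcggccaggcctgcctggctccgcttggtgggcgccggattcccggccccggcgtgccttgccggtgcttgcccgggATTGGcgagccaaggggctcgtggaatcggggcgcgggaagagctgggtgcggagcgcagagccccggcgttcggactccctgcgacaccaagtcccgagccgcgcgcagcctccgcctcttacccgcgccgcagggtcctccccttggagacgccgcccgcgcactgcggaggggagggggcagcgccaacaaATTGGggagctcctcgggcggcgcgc
Col4a3: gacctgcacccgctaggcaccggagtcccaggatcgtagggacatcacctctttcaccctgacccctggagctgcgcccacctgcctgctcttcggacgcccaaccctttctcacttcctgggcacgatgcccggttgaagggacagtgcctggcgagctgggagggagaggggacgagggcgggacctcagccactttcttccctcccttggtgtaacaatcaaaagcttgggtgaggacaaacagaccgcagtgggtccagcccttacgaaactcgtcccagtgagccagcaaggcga
The letters CCAAT were found in either orientation in 11 of the 35 collagen promoters (31.4%) and in 37.5% of all 33469 promoters in the table. On either strand, TATAAA was found in 4 of 35 (11.4%) against 14.2% of all promoters. The letters of a GC box, GGGCGG, were found on either strand in 19 of 35 (54.3%) against 33.1% of all. The windows shown for Col1a2, Col5a3 and Col4a1 hold CCAAT, and those of Col5a1 and Col4a3 do not. The type IV genes lie head to head on opposite strands. The annotated starts of Col4a1 and Col4a2 are 77 bases apart on chromosome 16, those of Col4a3 and Col4a4 413 bases apart on chromosome 9 and those of Col4a5 and Col4a6 1415 bases apart on chromosome X. These are letters and distances, and binding was not measured.

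Total counts were 52342134 to 73557878 per library (median 64352162), and collagen genes took 0.214% to 1.18% of them. Levels of different genes are given as deposited TPM (read counts divided by gene length and scaled to the same total in each library), and values of 1 gene across libraries as TMM-scaled CPM (counts as a share of the library total, after edgeR's TMM scaling between libraries). Muscle fibre genes were abundant in every library, with a summed TPM of at least 77986 for 6 of them, and epidermal markers were near 0, with Krt5 and Dsg3 at 0 counts in all 15 libraries. The chi-square of the counts of both surgery libraries, over genes with at least 20 counts in the pair, was 4.66 per degree of freedom, where counting noise alone gives 1, and the other pairs of libraries of 1 group gave 21.8 to 446. The surgery libraries thus differed by more than counting noise but were the most alike, and were kept as 2 samples. In several collagen genes pMT 4 lay with pMT/VitD 1 and 2, and pMT/VitD 4 lay with pMT 1, 2 and 3. For the comparison of all pMT libraries, the count of calls, the class medians and the fold changes of Col11a1, Col11a2, Col4a3, Col12a1 and Col22a1 are therefore also given without pMT 4 and pMT/VitD 4. This omission follows collagen values of these same data, so adjusted p-values without these libraries are descriptive only.

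Col3a1, of type III collagen, had the highest collagen transcript level of this muscle. Over the 15 libraries the mean TPM was 496 for Col3a1, 164 for Col1a1, 106 for Col6a2, 95.7 for Col6a1, 91.1 for Col1a2, 76.8 for Col4a1 and 51.6 for Col4a2. Col5a2, Col6a3, Col15a1, Col5a1, Col5a3, Col18a1 and Col14a1 followed at 17.6 to 26.9, and the other 30 members were below 4. Of 44 members 41 were tested, and Col9a1, Col6a4 and Col25a1 failed the filter on low counts. Their counts did not exceed 20, 22 and 12 in any library.

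Summed collagen TPM was 829 to 877 in the control libraries, 1892 to 1900.0 in the surgery libraries and 1515 to 3015 in the VitD libraries. It was 640.2 to 1415 in the pMT libraries and 508 to 1100.0 in the pMT/VitD libraries. Every surgery and VitD library lay above every other library, and the control values lay within the range of the pMT libraries. Fibrillar chains made up 59% to 60.5% of collagen TPM in control, 68.1% to 68.4% in surgery, 66.7% to 71.9% in VitD, 58.2% to 63.9% in pMT and 58.8% to 63% in pMT/VitD libraries, so that their share was also higher in every surgery and VitD library than in any other. The share of type IV ran the other way, with 12.6% in control, 9.13% to 9.36% in surgery and 8.37% to 9.73% in VitD against 10.1% to 13.3% in pMT and 11.2% to 13.4% in pMT/VitD libraries. Type VI likewise held 20.2% to 21.6% in control and 16.9% in surgery libraries. FACIT chains held 1.88% to 2.05% in control, 2.11% to 2.13% in surgery, 1.99% to 2.29% in VitD, 1.81% to 2.43% in pMT and 1.85% to 2.63% in pMT/VitD libraries. These sums and shares are descriptions without a test, and TPM is not rescaled for differences in RNA composition between libraries.

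**Figure D1:**
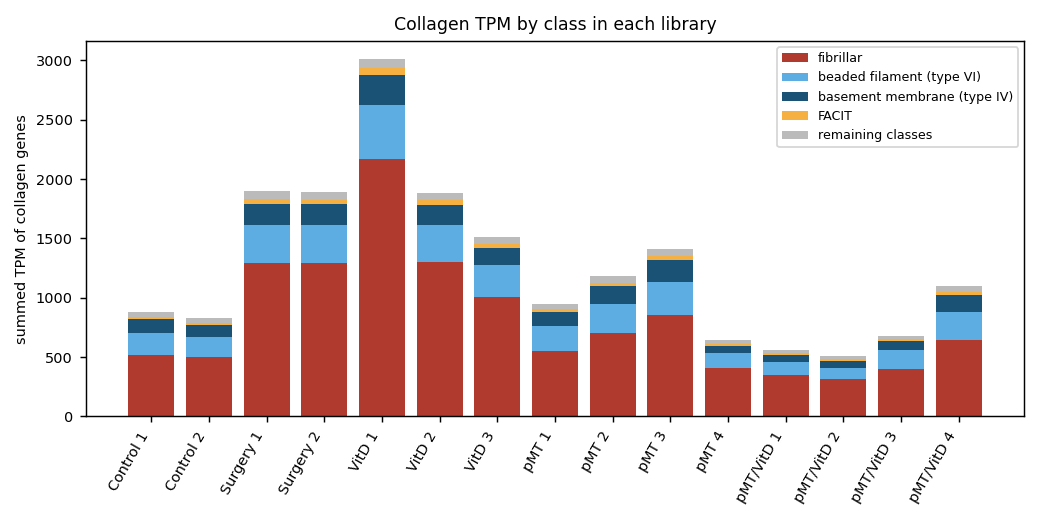
Summed deposited TPM (vertical axis, linear from 0) of collagen genes in each of the 15 libraries, stacked by class, with libraries of a group side by side. The 2 surgery libraries reach 1892 and 1900.0 TPM and the 3 VitD libraries 1515 to 3015, against 829 and 877 in control, and the fibrillar segment accounts for most of the added height.

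In the comparison of surgery with control, which asks how the operation and nerve ligation changed the muscle, 2 of 41 collagen genes were called at a Benjamini-Hochberg adjusted p under 0.05 in edgeR's quasi-likelihood test, both higher. Of all 17201 genes tested, 1.55% were called. The median log2 fold change of the 41 was 0.45, against -0.01 over all genes, and by class it was 0.99 for fibrillar, -0.11 for type IV, 0.18 for FACIT and 0.58 for other chains. The count rests on single libraries, since without either control library or either surgery library no collagen gene was called. It was 5 without pMT/VitD 4 (2.31% of all genes were called in that fit), 6 without VitD 3 (2.86%), 7 without VitD 1 (5.98%) and 8 without pMT 4 and pMT/VitD 4 together (4.22%). DESeq2 called 8 of 41, where it called 5.73% of all genes. A fit of the surgery and control libraries alone called 26 of 40, of which 22 were higher and 4 lower, where 32.4% of all genes were called.

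In the comparison of pMT with surgery, the study's main treatment comparison, 5 of 41 were called, all lower, where 1.94% of all genes were called. Their median log2 fold change was -0.33, against 0.02 for all genes. Without surgery 1 or surgery 2 no collagen gene was called, without pMT 1 or pMT 2 only 1 was, without pMT 3 there were 3, and without pMT 4 there were 2. Leaving out a library of a group outside the comparison also changed the count, with 2 calls without control 1, control 2, pMT/VitD 1, pMT/VitD 3 or VitD 2 and 3 without pMT/VitD 2. For pMT/VitD against surgery 9 of 41 were called, all lower, where 7.44% of all genes were called. The count was 1 without surgery 1 or surgery 2, 17 without pMT/VitD 4 (12.8% of all genes) and 14 without VitD 1 (11.8%). For VitD against control 9 of 41 were called, all higher, where 8.67% of all genes were called, and none was called without control 1 or control 2. A fit of the VitD and control libraries alone called 1 collagen gene and 0.579% of all genes, and DESeq2 called 14 collagen genes and 14% of all genes. Counts from fits without 1 library that have no share of all genes beside them are no result about collagen. These comparisons share the surgery or the control libraries and are not independent of each other.

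In 4 further comparisons and the interaction no gene at all was called, collagen or other, so that 0% of all genes were called in each. VitD against surgery had 1 collagen gene and 139 genes in all at an unadjusted p under 0.05, pMT against control 1 and 528, pMT/VitD against control 1 and 496, pMT/VitD against pMT 0 and 1737, and the interaction of pMT and VitD 1 and 888. The collagen gene was Col9a2 each time, which had 0 counts in control and surgery libraries. DESeq2 called 0 collagen genes in these 5 as well, and called genes of any kind only between pMT/VitD and pMT, where there were 97. Absence of a call does not show that levels were alike. Between pMT/VitD and pMT, for example, Col3a1 had a log2 fold change of -0.29 ± 0.19 (SE) and Col1a1 of -0.24 ± 0.24. This comparison depended on the libraries that stood apart, since without pMT 4 and pMT/VitD 4 it called 17 of 41 collagen genes, 4 higher and 13 lower, where 18.3% of all genes were called. When a trend on gene length was also removed, an alternative chosen after seeing the data, it called 3 of 41, where 4.43% of all genes were called. The interaction called 0 collagen genes in both of these fits, where 325 and 2 genes of any kind were called.

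The widest comparison set the 8 libraries of rats given pMT, with or without VitD, against the 5 of operated rats not given it (surgery and VitD), as the mean of the pMT and pMT/VitD groups minus the mean of the surgery and VitD groups. It called 21 of 41 collagen genes (51.2%), 20 lower and 1 higher, where 23.3% of all genes were called and 13.3% were called lower. In 11 of 41 (26.8%) each of the 8 libraries was lower than each of the 5, which held for 7.15% of all genes. The median was -0.55 for the collagen genes and 0.01 for all genes, and by class -1.001 for fibrillar, 0.27 for type IV, -0.22 for FACIT and -0.53 for other chains. Without surgery 1 the count was 12 and without surgery 2 it was 13. Without pMT 4 and pMT/VitD 4 it was 24, where 28.5% of all genes were called. The class medians were then -1.08 for fibrillar, -0.11 for type IV, -0.31 for FACIT and -0.58 for other chains, so that the sign for type IV turned. The counts without surgery 1 or surgery 2 have no share of all genes beside them and are no result about collagen.

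**Figure D2:**
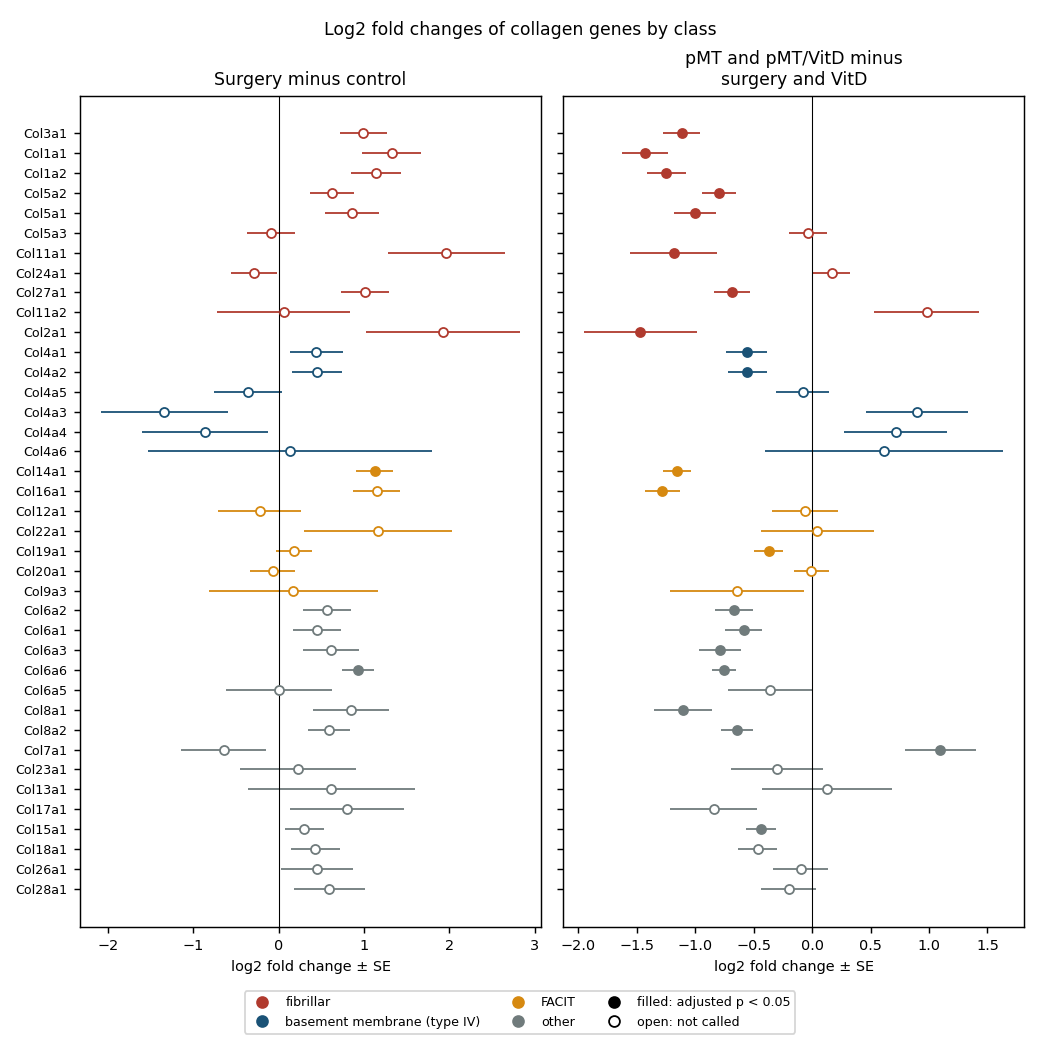
Log2 fold changes (horizontal axes, points, with bars of 1 SE) of 39 collagen genes, coloured by class, for surgery minus control (left) and for the mean of pMT and pMT/VitD minus the mean of surgery and VitD (right), with filled points for adjusted p under 0.05. Col9a2 and Col10a1, which have groups at or near 0 counts, are left out. Most fibrillar chains lie to the right of 0 on the left and to the left of 0 on the right, while Col5a3, Col12a1 and Col20a1 lie near 0 in both.

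Among fibrillar chains, Col3a1, the chain of type III collagen in the fine reticular fibres around muscle bundles, read 1190.2 and 1191 in control, 2366 and 2376 in surgery and 3906, 2458 and 1901 in VitD libraries. It read 1197, 1355, 1480.2 and 1189.8 in pMT and 1008, 853, 1088 and 1310.0 in pMT/VitD libraries, all in TMM-scaled CPM. Both surgery libraries and all VitD libraries were above every other library. Its log2 fold change was 0.99 ± 0.28 (SE) for surgery against control (adjusted p = 0.0851), -0.86 ± 0.23 for pMT against surgery (adjusted p = 0.0769), -1.15 ± 0.23 for pMT/VitD against surgery (adjusted p = 0.0106) and 1.21 ± 0.26 for VitD against control (adjusted p = 0.0151). With all pMT libraries together it was -1.12 ± 0.16 (adjusted p = 0.000254), a 2.17-fold lower level.

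Col1a1, which with Col1a2 makes type I collagen, the main fibril of tendon, bone and scar, read 457 and 388 in control, 1070.0 and 1047 in surgery and 1778, 1032 and 784 in VitD libraries. It read 335, 467, 601 and 412 in pMT and 358, 309, 351 and 524 in pMT/VitD libraries. The surgery and VitD libraries again did not overlap with the others. The log2 fold change was 1.32 ± 0.35 (SE) for surgery against control (adjusted p = 0.0713) and -1.22 ± 0.29 for pMT against surgery (adjusted p = 0.0449). It reached -1.43 ± 0.19 with all pMT libraries together (adjusted p = 0.000213), the lowest of the fibrillar chains above a mean TPM of 1. Col1a2 read 195 and 190.1 in control, 424 and 428 in surgery and 729, 429 and 317 in VitD libraries. It read 176, 211, 242 and 209.9 in pMT and 173, 149, 171 and 219 in pMT/VitD libraries. It fell by 1.02 on the log2 scale in pMT against surgery (adjusted p = 0.0458) and by 1.24 with all pMT libraries together (adjusted p = 0.000168). The ratio of Col1a1 to Col1a2 TPM was 1.46 to 1.93 in all 15 libraries.

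Type V collagen forms the core of type I fibrils and limits their width. With all pMT libraries together Col5a1 and Col5a2 were called and Col5a3 was not. Col5a1 read 106 and 98.5 in control, 186 and 185 in surgery and 233, 182 and 159 in VitD libraries. It read 95.7, 117, 139 and 78.4 in pMT and 64.6, 57.9, 83.7 and 122 in pMT/VitD libraries. Col5a2 read 92 and 97.1 in control, 144 and 148 in surgery and 224, 158 and 130.3 in VitD libraries. It read 104, 109, 116 and 81.5 in pMT and 69.6, 62.2, 85.7 and 106 in pMT/VitD libraries. Both were highest in the surgery and VitD libraries. In that comparison Col5a1 changed by -1.001 ± 0.18 (SE, adjusted p = 0.00137) and Col5a2 by -0.80 ± 0.15 (adjusted p = 0.00173). Col5a3, which can replace a chain of the trimer, read 91 and 84.8 in control, 83.7 and 81.2 in surgery and 93.4, 78.2 and 78.9 in VitD libraries. It read 92.2, 102, 110.1 and 61.4 in pMT and 55.7, 53.8, 76.5 and 102 in pMT/VitD libraries. Its groups overlapped, and its log2 fold change was -0.09 ± 0.28 for surgery against control (adjusted p = 0.902) and -0.03 ± 0.16 with all pMT libraries together (adjusted p = 0.908). The ratio of Col5a3 to Col5a1 TPM was 1.12 and 1.13 in control, 1.26, 1.15, 1.03 and 1.03 in pMT and 1.13, 1.22, 1.2 and 1.08 in pMT/VitD libraries, against 0.591 and 0.578 in surgery and 0.527, 0.565 and 0.655 in VitD libraries. The 5 surgery and VitD libraries lay below all of the other 10, a description of ratios without a test. The Col5a3 window printed above holds a CCAAT match and the Col5a1 window none, and whether that bears on the ratio was not tested.

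**Figure D3:**
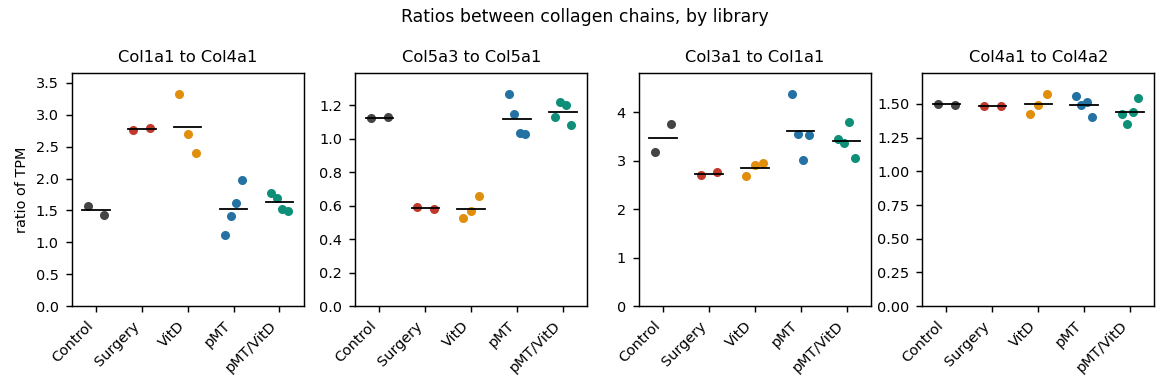
Ratios of deposited TPM between 2 chains (vertical axes, linear from 0) in each library, points, with the group mean as a line. Col5a3 to Col5a1 lies between 1.03 and 1.26 in control, pMT and pMT/VitD libraries and between 0.527 and 0.655 in surgery and VitD libraries, whereas Col4a1 to Col4a2 stays between 1.35 and 1.57 in all.

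The ratio of Col3a1 to Col1a1 was 3.18 to 3.75 in control, 2.7 to 2.77 in surgery, 2.68 to 2.96 in VitD, 3.01 to 4.37 in pMT and 3.06 to 3.79 in pMT/VitD libraries. Surgery and VitD libraries thus held more Col1a1 relative to Col3a1 than the other libraries did. The gap was small, from 2.96 in the highest VitD library to 3.01 in the lowest pMT library. Col3a1 exceeded Col1a1 in every library. This describes ratios without a test, and the ratio to Col1a2, the other type I chain, was not computed.

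The remaining fibrillar chains were scarce, each below a mean TPM of 1. Col11a1, a chain of the thin fibrils of cartilage, read 2.11 and 1.92 in control, 7.43 and 8.31 in surgery and 16.3, 8.12 and 5.49 in VitD libraries. It read 2.91, 2.37, 2.65 and 7.93 in pMT and 5.47, 6.02, 2.3 and 1.65 in pMT/VitD libraries. It was called higher in VitD against control (2.31 ± 0.66, SE, adjusted p = 0.0453) and lower with all pMT libraries together (-1.18 ± 0.37, adjusted p = 0.0334). However, pMT 4 and pMT/VitD 2 lay within the range of the surgery and VitD libraries, and pMT/VitD 1 just below it. Without pMT 4 and pMT/VitD 4, which leaves pMT/VitD 1 and 2 in, the fold change for pMT was -1.36 ± 0.29 (adjusted p = 0.00485). Col27a1 read 1.4 and 1.33 in control, 3.26 and 2.26 in surgery and 3.75, 2.12 and 2.45 in VitD libraries. It read 2.09, 1.61, 1.75 and 1.94 in pMT and 1.36, 1.56, 2 and 1.52 in pMT/VitD libraries. It was called in the same 2 comparisons, at 1.02 ± 0.26 (adjusted p = 0.0303) and -0.68 ± 0.16 (adjusted p = 0.00687). Col2a1, the main chain of cartilage fibrils, read 0.0631 and 0.133 in control, 0.401 and 0.355 in surgery and 0.573, 0.378 and 0.521 in VitD libraries. It read 0, 0.128, 0.0413 and 0.222 in pMT and 0.367, 0.315, 0.172 and 0.136 in pMT/VitD libraries. It had at most 49 counts in a library and was called lower with all pMT libraries together, at -1.47 ± 0.48 (adjusted p = 0.04). Beside it, 8 cartilage markers summed to 1.28 to 1.39 TPM in control, 2.18 to 2.58 in surgery and 1.87 to 2.64 in VitD libraries. They summed to 1.5 to 2.44 in pMT and 1.12 to 1.49 in pMT/VitD libraries. With all pMT libraries together 1 of 4 tested was called higher and 1 lower, where 23.3% of all genes were called. Acan and Matn1 had 0 counts in every library. The part of cartilage cells in the Col2a1 values was not tested. Col24a1 and Col11a2 were called in no comparison. Col11a2 read 0.573, 0.665, 0.62 and 2.68 in pMT and 2.7, 1.93, 1.23 and 0.486 in pMT/VitD libraries, where pMT 4 and pMT/VitD 1, 2 and 3 were above all other libraries. Its log2 fold change with all pMT libraries together was 0.98 ± 0.45 (adjusted p = 0.131), and without pMT 4 and pMT/VitD 4 0.69 ± 0.24 (adjusted p = 0.0459). Col11a1 and Col11a2 were among the genes in which pMT 4 stood apart. Their smaller adjusted p-values without it are therefore no separate support.

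**Figure D4:**
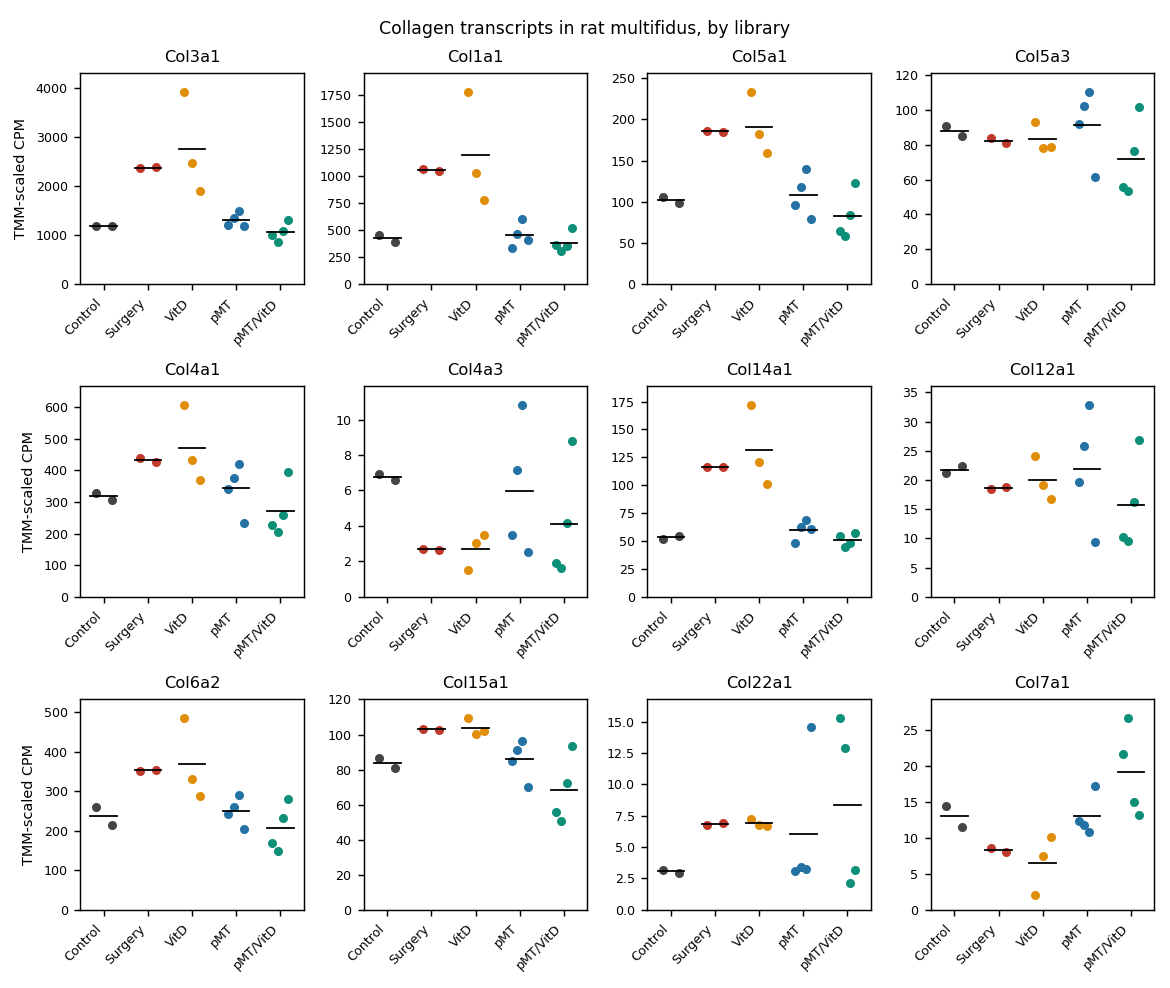
TMM-scaled CPM (vertical axes, linear from 0, own scale for each gene) of 12 collagen genes in each library, points, with the group mean as a line. Col3a1, Col1a1, Col5a1 and Col14a1 are highest in the surgery and VitD libraries, Col5a3 and Col12a1 overlap between groups, and Col7a1 is lowest in the surgery and VitD libraries.

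Of the 6 type IV chains, 2 were called lower with all pMT libraries together and the others were not called. Col4a1, which with Col4a2 makes the network found under nearly every cell layer, read 329 and 306 in control, 438 and 424 in surgery and 605, 433 and 369 in VitD libraries. It read 339.7, 375, 421 and 235 in pMT and 227, 205, 259 and 395 in pMT/VitD libraries. Surgery libraries were above control, and the ranges of the pMT groups overlapped those of the VitD libraries. Its log2 fold change was 0.44 ± 0.31 (SE) for surgery against control (adjusted p = 0.508) and -0.56 ± 0.18 with all pMT libraries together (adjusted p = 0.0341). Col4a2 read 215 and 202 in control, 290.3 and 281 in surgery and 417, 285 and 231 in VitD libraries. It read 214, 247, 272 and 164 in pMT and 157, 149, 177 and 251 in pMT/VitD libraries. It was called in the same comparison at -0.55 ± 0.17 (adjusted p = 0.0264). The ratio of Col4a1 to Col4a2 TPM was 1.35 to 1.57 over all 15 libraries, in which the level of Col4a1 varied from 205 to 605 TMM-scaled CPM. These are the genes whose starts lie 77 bases apart, and whether that bears on the ratio was not tested. A narrow ratio was not particular to them, since Col6a1 to Col6a2 stayed within 0.85 to 0.989.

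Col4a3, a chain of the specialised network of the kidney filter and of the basal lamina at the nerve-muscle synapse, read 6.91 and 6.62 in control, 2.7 and 2.65 in surgery and 1.52, 3.01 and 3.5 in VitD libraries. It read 3.47, 7.16, 10.8 and 2.53 in pMT and 1.92, 1.61, 4.17 and 8.78 in pMT/VitD libraries. Both surgery libraries were below both control libraries, and the pMT libraries spread from below surgery to above control. None of its comparisons was called, with -1.34 ± 0.74 (SE, adjusted p = 0.387) for surgery against control and 0.90 ± 0.44 (adjusted p = 0.157) with all pMT libraries together. The latter was 0.67 ± 0.33 (adjusted p = 0.147) without pMT 4 and pMT/VitD 4. Col4a4, its partner chain, read 1.01 and 1.3 in control, 0.711 and 0.559 in surgery and 0.468, 0.567 and 0.612 in VitD libraries. It read 0.64, 1.22, 1.61 and 0.425 in pMT and 0.281, 0.575, 0.623 and 2.34 in pMT/VitD libraries. It was not called either, with -0.86 ± 0.74 (adjusted p = 0.595) for surgery against control. Col4a5 read 21.5 and 23.3 in control, 16.7 and 18.1 in surgery and 15.4, 16.9 and 21.5 in VitD libraries. It read 23.4, 22.7, 21.6 and 10.4 in pMT and 9.01, 9.03, 18 and 21 in pMT/VitD libraries. It was lower in pMT 4 and pMT/VitD 1 and 2 than in any other library. Col4a6 had at most 20 counts in a library. The ratio of Col1a1 to Col4a1, a fibril chain against a basement membrane chain, was 1.57 and 1.43 in control, 2.76 and 2.79 in surgery and 3.32, 2.69 and 2.4 in VitD libraries. It was 1.11, 1.41, 1.61 and 1.98 in pMT and 1.78, 1.7, 1.53 and 1.5 in pMT/VitD libraries, all below the surgery and VitD libraries.

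Of the FACIT chains, Col14a1, found on fibrils of muscle, tendon and skin, read 52.1 and 54.4 in control, 117 and 116 in surgery and 172, 121 and 101 in VitD libraries. It read 48.1, 63, 68.9 and 61 in pMT and 54.3, 44.8, 48.4 and 57.2 in pMT/VitD libraries. Each surgery and VitD library was above each other library. It was called higher in surgery against control, at 1.13 ± 0.22 (SE, adjusted p = 0.0243), and lower in pMT against surgery, at -0.95 ± 0.18 (adjusted p = 0.0172). For pMT/VitD against surgery it was -1.19 ± 0.18 (adjusted p = 0.00246), and with all pMT libraries together -1.15 ± 0.12 (adjusted p = 3.26e-05), the smallest adjusted p among collagen genes. Col16a1 read 9.13 and 8.8 in control, 19.7 and 20.2 in surgery and 33.3, 19.3 and 16.2 in VitD libraries. It read 8.66, 10.2, 10.5 and 7.88 in pMT and 7.5, 6.82, 8.9 and 10.1 in pMT/VitD libraries. Its groups separated in the same way, at 1.15 ± 0.27 for surgery against control (adjusted p = 0.0508), -1.09 ± 0.23 for pMT against surgery (adjusted p = 0.0252) and -1.28 ± 0.15 with all pMT libraries together (adjusted p = 8.71e-05).

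Col12a1, a close relative of Col14a1 that also coats type I fibrils, read 21.1 and 22.4 in control, 18.5 and 18.9 in surgery and 24, 19.2 and 16.8 in VitD libraries. It read 19.6, 25.7, 32.8 and 9.45 in pMT and 10.3, 9.56, 16.3 and 26.9 in pMT/VitD libraries. Its groups overlapped, with -0.22 ± 0.49 (SE, adjusted p = 0.859) for surgery against control and -0.06 ± 0.28 (adjusted p = 0.904) with all pMT libraries together. The latter was -0.14 ± 0.16 (adjusted p = 0.543) without pMT 4 and pMT/VitD 4. The ratio of Col14a1 to Col12a1 TPM was 4.85 and 4.78 in control, 12.4 and 12.1 in surgery, 4.82, 4.81, 4.13 and 12.7 in pMT, 10.4, 9.21, 5.84 and 4.18 in pMT/VitD and 14, 12.4 and 11.8 in VitD libraries, with pMT 4 as high as the surgery libraries. Col22a1, a chain of the junction between muscle and tendon, read 3.17 and 2.95 in control, 6.8 and 6.96 in surgery and 7.22, 6.78 and 6.7 in VitD libraries. It read 3.12, 3.38, 3.24 and 14.6 in pMT and 15.3, 12.9, 2.13 and 3.15 in pMT/VitD libraries. The libraries pMT 4, pMT/VitD 1 and pMT/VitD 2 stood above all others, with the surgery and VitD libraries next. No comparison of Col22a1 was called, with 0.05 ± 0.49 with all pMT libraries together (adjusted p = 0.96) and -0.28 ± 0.36 (adjusted p = 0.602) without pMT 4 and pMT/VitD 4. Of 6 tendon markers, Tnmd, Fmod and Kera were also highest in pMT 4, pMT/VitD 1 and pMT/VitD 2. Tnmd was at 8.08, 6.39 and 5.78 TPM there and at most 4.68 elsewhere, Fmod at 17.5, 15.3 and 13.3 against at most 9.22 and Kera at 3.51, 3.21 and 2.68 against at most 1.54. Thbs4 and Mkx of the same list did not follow this. Thbs4 had 6011, 4542 and 4001 counts there against 17031 and 15719 in the surgery libraries. Mkx had 16, 15 and 21 there against 30 in pMT 2 and in pMT 3. Scx had 1282, 1102 and 1220 counts there and 648 to 1142 elsewhere. These are raw counts, not scaled for library totals. The 1142 were in pMT 2, with a total count of 73557878, and the 1102 in pMT/VitD 1, with 54525121. The part of tendon cells in the Col22a1 values was not tested.

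Col19a1 read 7.16 and 8.03 in control, 8.32 and 8.89 in surgery and 12.9, 10.2 and 8.46 in VitD libraries. It read 6.15, 8.11, 9.89 and 7.03 in pMT and 7.63, 6.47, 6.45 and 7.1 in pMT/VitD libraries. The groups overlapped, and it was called lower with all pMT libraries together, at -0.37 ± 0.12 (SE, adjusted p = 0.0403). Col20a1 was called in no comparison. Col9a3 was called in none and had at most 38 counts in a library. Col9a2 had 0 counts in both control and both surgery libraries, 10, 21, 21 and 12 in the pMT, 8, 8, 6 and 0 in the pMT/VitD and 11, 16 and 0 in the VitD libraries. Col9a1 was not tested.

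Type VI forms the filaments that join the basement membrane of muscle fibres to the interstitium. Col6a2 read 261 and 216 in control, 353 and 354 in surgery and 485, 331 and 289 in VitD libraries. It read 242, 261, 290.3 and 204 in pMT and 170.2, 149, 232 and 279.9 in pMT/VitD libraries. Surgery libraries were above control, and the lowest VitD library was within the range of the pMT libraries. With all pMT libraries together it changed by -0.66 ± 0.16 (SE, adjusted p = 0.00963), Col6a1 by -0.59 ± 0.16 (adjusted p = 0.0178) and Col6a3 by -0.79 ± 0.18 (adjusted p = 0.00718). Surgery against control gave 0.57 ± 0.29 for Col6a2, 0.45 ± 0.28 for Col6a1 and 0.61 ± 0.32 for Col6a3, none of them called. Col6a1 read 258 and 236 in control, 342 and 335 in surgery and 476, 327 and 282 in VitD libraries. It read 252, 276, 281 and 214 in pMT and 178, 145, 243 and 284 in pMT/VitD libraries. The ratio of Col6a1 to Col6a2 TPM was 0.85 to 0.989 in all libraries. Col6a3 read 154 and 157 in control, 235 and 241 in surgery and 337, 241 and 205 in VitD libraries. It read 166, 183, 213 and 111 in pMT and 97.8, 88.4, 136 and 174 in pMT/VitD libraries. It was called lower in pMT/VitD against surgery (-0.94 ± 0.27, adjusted p = 0.0494).

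Col6a6, one of the chains that can take the place of Col6a3, read 7.49 and 8.9 in control, 15.9 and 15.3 in surgery and 17.3, 14.5 and 13.2 in VitD libraries. It read 7.8, 11, 11.2 and 9.78 in pMT and 8.43, 7.14, 8.41 and 9.22 in pMT/VitD libraries. Every surgery and VitD library was above every other library. It was called higher in surgery against control, at 0.93 ± 0.18 (SE, adjusted p = 0.0268), and lower in pMT against surgery, at -0.65 ± 0.15 (adjusted p = 0.0456). With all pMT libraries together it was -0.75 ± 0.10 (adjusted p = 0.000232). Of the other chains of this kind, Col6a5 was called in no comparison, with at most 58 counts in a library, and Col6a4 was not tested.

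Of the short-chain network formers, Col8a1, found in vessel walls, read 5.47 and 4.63 in control, 8.42 and 9.78 in surgery and 15.3, 9.04 and 8.34 in VitD libraries. It read 5.21, 6.1, 8.08 and 2.64 in pMT and 2.48, 2.93, 4.26 and 5.82 in pMT/VitD libraries. It was called lower with all pMT libraries together, at -1.10 ± 0.25 (SE, adjusted p = 0.00601). Col8a2 read 6.28 and 5.62 in control, 10.2 and 7.68 in surgery and 12.7, 8.57 and 7.78 in VitD libraries. It read 5.76, 5.65, 5 and 7.76 in pMT and 6.7, 5.13, 5.5 and 6.27 in pMT/VitD libraries. It changed by -0.64 ± 0.14 (adjusted p = 0.00488) in the same comparison. Col10a1, the chain of hypertrophic cartilage, had 2 and 0 counts in the control libraries, 56 and 43 in the surgery libraries, 48, 27 and 75 in the VitD libraries, 2, 0, 0 and 20 in pMT and 27, 10, 0 and 0 in pMT/VitD libraries. With the floor taken as 3 counts per library, the mean of the surgery libraries was at least 13.5-fold higher and that of the VitD libraries at least 13.2-fold higher than control. Neither passed the test, with adjusted p = 0.212 for surgery and 0.12 for VitD against control in edgeR's quasi-likelihood test. Of 8 bone markers the sum was 1.76 to 1.79 TPM in the surgery libraries and 2.09 to 2.11 in the control libraries, with 0 of 4 tested called between them. For 8 cartilage markers it was 2.18 to 2.58 TPM in surgery and 1.28 to 1.39 in control libraries, again with 0 of 4 tested called.

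Col7a1, which forms the anchoring fibrils under the skin's surface layer, was the collagen gene called in the opposite direction. It read 14.5 and 11.5 in control, 8.55 and 8.1 in surgery and 2.06, 7.45 and 10.1 in VitD libraries. It read 12.3, 11.8, 10.8 and 17.2 in pMT and 21.6, 26.7, 15 and 13.2 in pMT/VitD libraries. All 8 pMT and pMT/VitD libraries were above all 5 surgery and VitD libraries. Its log2 fold change was 1.10 ± 0.30 (SE) with all pMT libraries together (adjusted p = 0.0181) and -0.64 ± 0.50 for surgery against control (adjusted p = 0.553). Epidermal markers summed to 0.453 to 1.21 TPM per library. In the same comparison 0 of 2 tested markers were called, where 23.3% of all genes were called. Of these 2, 1 had a fold change above 0 and 1 below 0. The part of epidermal cells in the Col7a1 values was not tested.

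Both multiplexins, which carry heparan or chondroitin sulfate chains in basement membranes, were among the more abundant members. Col15a1 read 86.4 and 80.9 in control, 103 and 103 in surgery and 109, 100.2 and 102 in VitD libraries. It read 85.2, 91.3, 96.4 and 70.1 in pMT and 55.9, 50.8, 72.5 and 93.6 in pMT/VitD libraries. All 8 pMT libraries were below the other 5 operated ones. It changed by -0.44 ± 0.13 (SE, adjusted p = 0.0262). Col18a1, whose end fragment is endostatin, read 62.2 and 52.8 in control, 80 and 75.3 in surgery and 94.3, 72.5 and 65.7 in VitD libraries. It read 60.4, 68.1, 75 and 41.8 in pMT and 41.5, 41.1, 48.8 and 74.4 in pMT/VitD libraries. It changed by -0.47 ± 0.16 (adjusted p = 0.0547), which missed the threshold. The transmembrane chains Col13a1, Col17a1 and Col23a1 and the chains Col26a1 and Col28a1 were called in no comparison, and none of these 5 exceeded a mean TPM of 0.5.

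Genes that process collagen were also called lower in the comparison of all pMT libraries, in which 23.3% of all genes were called. Of 21 genes for folding and modification of procollagen, 13 were called lower and 1 higher. Serpinh1, the chaperone of the triple helix, changed by -0.78 ± 0.10 (SE, adjusted p = 0.000144), P4hb, a subunit of prolyl 4-hydroxylase, by -0.28 ± 0.08 (adjusted p = 0.0241) and Ppib, a prolyl isomerase, by -0.50 ± 0.13 (adjusted p = 0.0136). Plod2, the lysyl hydroxylase of the telopeptides, changed by -1.20 ± 0.14 (adjusted p = 6.31e-05) and Fkbp10, which assists it, by -0.998 ± 0.14 (adjusted p = 0.000219). The catalytic subunits of prolyl 4-hydroxylase differed among themselves, with P4ha1 at 0.00 ± 0.09 (adjusted p = 1), P4ha2 called higher at 0.20 ± 0.06 (adjusted p = 0.0246) and P4ha3, at a mean TPM of 0.16, called lower at -3.63 ± 0.75 (adjusted p = 0.00415). P4ha3 had 43 and 53 counts in surgery and 127, 30 and 8 in VitD libraries, and at most 16 in any library given pMT. The low-count filter kept it through libraries where it was high, so its place among the 13 is no support.

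Of 11 tested genes for propeptide cleavage and crosslinking, 8 were called lower and none higher. Lox, which oxidises lysines for crosslinks, changed by -1.95 ± 0.23 (SE, adjusted p = 7.36e-05), its relative Loxl1 by -1.55 ± 0.20 (adjusted p = 0.000127), Bmp1, the C-propeptide protease, by -0.66 ± 0.10 (adjusted p = 0.000453) and Pcolce, its enhancer, by -0.52 ± 0.11 (adjusted p = 0.00526). The 6 genes for procollagen export did not share a direction, with 1 called higher, Mia2 at 0.49 ± 0.11 (adjusted p = 0.00676), and 1 lower, Sec24d at -0.62 ± 0.13 (adjusted p = 0.00485). Of 9 tested receptors and uptake genes, 5 were called lower, among them Itga11, an integrin chain that binds fibrillar collagen on fibroblasts, at -0.80 ± 0.08 (adjusted p = 3.07e-05), and Mrc2, which takes up collagen fragments, at -0.72 ± 0.14 (adjusted p = 0.00223). The collagen receptors Ddr1 (0.03 ± 0.12, adjusted p = 0.885) and Ddr2 (-0.06 ± 0.07, adjusted p = 0.528) were not called, and Itgb1, the most abundant of the list, was called lower at -0.31 ± 0.09 (adjusted p = 0.02). The others called lower were Itga2 (-1.13 ± 0.21, adjusted p = 0.00215) and Gp6 (-4.58 ± 1.27, adjusted p = 0.0241), a platelet receptor at a mean TPM of 0.0186. Gp6 had 17 and 5 counts in surgery and 13, 8 and 0 in VitD libraries, and at most 2 in any library given pMT. The low-count filter kept it through libraries where it was high, so its place among the 5 is no support. In surgery against control the called genes of these lists were Plod2 (1.20 ± 0.25, adjusted p = 0.0308), Serpinh1 (0.75 ± 0.18, adjusted p = 0.0489), Bmp1 (0.77 ± 0.18, adjusted p = 0.0454), Loxl1 (1.58 ± 0.35, adjusted p = 0.043) and Itga11 (0.86 ± 0.15, adjusted p = 0.0141), all higher.

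**Figure D5:**
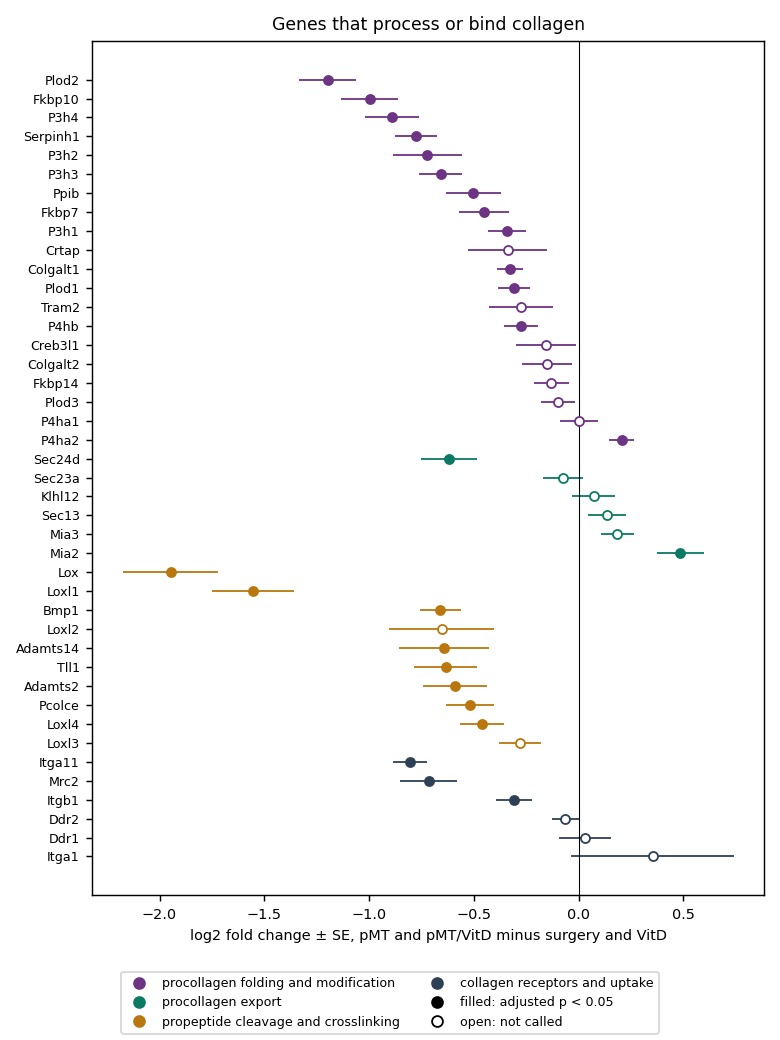
Log2 fold changes (horizontal axis, points, with bars of 1 SE) of 42 genes that process or bind collagen, at a mean TPM of at least 0.5, for the mean of pMT and pMT/VitD minus the mean of surgery and VitD, coloured by role, with filled points for adjusted p under 0.05. Of these, 24 are called lower and 2 higher, with Lox and Loxl1 farthest to the left.

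Markers of other cell types were measured beside the collagens. In the comparison of all pMT libraries, 23.3% of all genes were called and 13.3% were called lower. The summed TPM of 8 fibroblast markers was 732 to 803 in control, 1008 to 1040 in surgery, 1031 to 1329 in VitD, 619 to 994 in pMT and 504 to 810.3 in pMT/VitD libraries, and 5 of 8 were called lower with all pMT libraries together. Lum changed by -0.85 ± 0.14 (SE, adjusted p = 0.000688). Dcn, the most abundant of them, was not called at -0.05 ± 0.10 (adjusted p = 0.77), nor was Pdgfra, which marks fibro-adipogenic progenitors, at -0.33 ± 0.12 (adjusted p = 0.0508). The sum of 5 macrophage markers was 36.4 to 37.7 TPM in control, 74.7 to 75.4 in surgery, 71.4 to 89.3 in VitD, 20.3 to 54.5 in pMT and 19.2 to 45.6 in pMT/VitD libraries, and 5 of 5 were called lower. Tendon markers, 6 in all, summed to 38.6 to 39.8 TPM in control, 134 to 137 in surgery, 83.8 to 270 in VitD, 44.1 to 85.5 in pMT and 38.4 to 77.8 in pMT/VitD libraries, with 1 called higher (Scx) and 1 lower (Thbs4). Thbs4 made up most of that sum in surgery libraries, at 103 and 106 TPM, against 15.9 and 16.4 in control. The other 5 tendon markers had fold changes above 0 with all pMT libraries together, and the median of the 6 was 0.49 on the log2 scale. Of 6 muscle fibre markers, 2 were called higher and none lower in that comparison, with a median of 0.38. These were Myh4 (0.88 ± 0.26, adjusted p = 0.0235) and Des (0.44 ± 0.10, adjusted p = 0.00765). Endothelial markers had 2 of 6 called higher and 1 lower, and Schwann cell markers 1 of 6 lower. Beside the share of all genes called, 1 or 2 calls in a list of 6 are no result about that cell type. The part of these cells in the collagen differences was not tested. In bulk tissue, fewer cells of a type and less RNA per cell cannot be told apart.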

How the data were processed

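RNA of the multifidus was read paired-end on a NovaSeq instrument in 15 libraries, grouped by the sample labels. Per the labels and the study's methods, Trimmomatic 0.38 was used by the authors for trimming, HISAT2 2.1.0 for alignment to rn6, SAMtools 1.9 for sorting and StringTie 2.1.3b for gene values on RefSeq annotation. The values the authors deposited are raw counts of reads per gene, and TPM values scaled to the same total per library. Deposited FPKM values were not used. How strand and reads that align to several genes were handled is not given in the sources used here, so overlapping genes and near-identical copies are uncertain.

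Counts were tested with edgeR 4.0.16 in R 4.3.3 (quasi-likelihood F-test, robust, TMM, group as the only term) over all 15 libraries and the 17201 of 37991 genes that filterByExpr kept. A gene was called where its adjusted p (Benjamini-Hochberg, over all genes tested) was below 0.05. The study's methods name edgeR's exactTest with Benjamini-Hochberg adjustment, and call genes at a 2-fold minimum and P under 0.05. They do not say whether this P is the adjusted one, so both versions are given as alternatives. The SE was taken as the log2 fold change divided by the square root of F. Deposited TPM served for levels between genes, class sums and chain ratios. The script was tested on simulated data. Alternatives were RLE scaling, library size alone, 2 other filters, DESeq2 1.42.0, only the groups compared, a replicate block, removal of a gene length trend (effective length as mean count over mean TPM), and leaving out libraries.

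Members, classes and lists were chosen with earlier results of these data known. Values per library are given for the 3 most abundant members of a class and for called members, and in other lists the 3 most abundant and up to 3 called genes are named. Col5a3, Col4a3, Col4a4, Col11a2, Col9a2, Col22a1, P4ha1, P4ha2, Mrc2 and the cell markers named singly were chosen after their values were seen. In 2 lists a gene was matched by identifier, Mia2 as LOC100912115 and Cnmd as Lect1. Pcolce2 and Col21a1 were not analysed here. Promoter windows and gene starts came from RefSeq on GRCr8, another build than the alignment, and were used for sequence and neighbours only.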

Additional observations from a re-analysis of the deposited data

Results flagged for a closer look

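In each group of 4 libraries, the highest or lowest value of each tested collagen gene was compared with the rest by Dixon's criterion on TMM-scaled CPM. It was passed by 6 of 82 sets, and chance alone passes about 1 in 20, or 4.1 of 82. Of the 6, 5 were in library pMT 4. Col22a1 was at 14.6 CPM there, against 3.12 to 3.38 in the other 3 pMT libraries, Col11a1 at 7.93 against 2.37 to 2.91 and Col11a2 at 2.68 against 0.573 to 0.665. Col4a5 was at 10.4 CPM against 21.6 to 23.4, and Col10a1 at 0.37 against 0 to 0.0337. The remaining value was Col4a4 in library pMT/VitD 4, at 2.34 CPM against 0.281 to 0.623 in the other 3. In no collagen gene did the libraries separate in opposite directions for pMT against surgery and for pMT/VitD against VitD.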

How the results depend on the processing

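Of 46 called fold changes of single collagen genes, 1159 values under alternatives were computed, of which 955 kept direction and call, 204 kept direction but were no longer called and 0 reversed. With 1 library left out, the number of collagen genes called ran from 0 to 7 for surgery against control (2 with all libraries), from 0 to 7 for pMT against surgery (5), from 1 to 17 for pMT/VitD against surgery (9), from 0 to 12 for VitD against control (9) and from 12 to 22 for all pMT libraries together (21). The other 5 comparisons stayed at 0 under these. Where an arm was left with 1 library, that library was assumed to vary like the other groups. The counts below follow the order surgery against control, pMT against surgery, pMT/VitD against surgery, VitD against control and all pMT libraries together. Library size alone gave 7, 3, 17, 12 and 24 and moved the median of all genes by 0.25, -0.12, -0.32, 0.27 and -0.23 on the log2 scale. DESeq2 gave 8, 7, 14, 14 and 23, where 5.73% of all genes were called for surgery against control and 14% for VitD against control. Fits of only the groups compared gave 26, 6, 6, 1 and 20, where 32.4% of all genes were called for surgery against control and 0.579% for VitD against control. The share of all genes called thus moved with the setting as well, and these counts are not shifts particular to collagen. The same limit holds for every count in this section that has no share of all genes beside it. Removing a trend on gene length gave 7, 7, 10, 10 and 20. RLE scaling and both other count filters moved none of the counts by more than 1.5 times. Leaving out pMT 4 and pMT/VitD 4 gave 8, 6, 19, 16 and 24, and 17 for pMT/VitD against pMT. Of all genes, 4.22% were then called for surgery against control, 28.5% for all pMT libraries together and 18.3% for pMT/VitD against pMT. With the gene length trend removed as well, chosen after seeing the data, leaving them out gave 7, 7, 18, 17 and 24, and 3 for pMT/VitD against pMT. For pMT against surgery, edgeR's exactTest on the 2 groups with a 2-fold minimum gave 6 at an unadjusted p under 0.05, 2 higher and 4 lower, and 4 at an adjusted p under 0.05, 1 higher and 3 lower, the latter chosen after seeing the data. Why the counts moved was not tested, except that leaving out libraries means fewer samples.

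With a replicate block the counts were 0, 0, 5, 9 and 15 in the same order, without the share of all genes called beside them. The numbers are not stated to pair rats. Of 24 pairs of same-numbered libraries from different groups, 3 had deviations from the group means that correlated above 0.1, with a range of -0.794 to 0.308, and 5 of 15 libraries correlated best with a library of their own number, so these were treated as names only. Depth limited Col2a1, Col4a6, Col9a1, Col9a2, Col9a3, Col6a4, Col10a1, Col13a1 and Col25a1, which had 0 counts in at least 1 library and at most 75 in any.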
